A study of Homo sapiens with 24 samples.

Results

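The 9 genes described here were EBI3, IL3RA, IL6, LIF, IL11, IL6R, IL6ST, OSMR and LIFR, taken by symbol from the 58721 gene rows of the deposited counts. They were proposed with results of these libraries in view. In particular, the higher level of EBI3 after the double knockdown and of IL3RA after FOXM1 knockdown led to both genes being chosen: they were selected on those values. These are therefore given as a description, with no test. Counts were obtained by RNA-seq from 24 libraries of A549, an established human lung adenocarcinoma line.

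Of these, 4 libraries each carried siRNA against MYBL2 (siMYBL2), siRNA against FOXM1 (siFOXM1) or scrambled siRNA (siControl). The siRNA concentration was 25 nM, with DharmaFECT1 as the transfection reagent. A separate experiment held 3 libraries with both siRNAs together (siBoth) and 3 scrambled siRNA controls of its own (siControl_Both). In a further experiment, 3 libraries of cells given 20 µM FDI-6 for 24 h (FDI6) were set against 3 control libraries (control_FDI6). The labels do not name their vehicle, and the study's list of supplements names DMSO for the comparison. FDI-6 is a small molecule known to hinder the binding of FOXM1 to DNA. All cells were of 1 line, so the labels give 1 genetic background, and the labels do not say whether same-group libraries came from separate cultures. The study's methods call the replicates biological. The p-values measure the spread between these libraries.

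Cytokines of the interleukin-6 family signal through receptors that share the chain gp130, which is the product of IL6ST. Binding of a ligand activates the JAK kinases and STAT3, and in epithelial tumor cells the family is known for autocrine growth and inflammatory signaling. IL6, LIF and IL11 encode secreted ligands. IL6R and LIFR encode the binding chains for IL-6 and LIF, and OSMR encodes the chain that pairs with gp130 for oncostatin M. EBI3 encodes a secreted subunit with no cytokine activity known on its own, which pairs with the IL27 product to form interleukin-27 and with the IL12A product to form interleukin-35. IL3RA encodes the interleukin-3 receptor alpha chain (CD123), which belongs to a different family and pairs with the common beta chain CSF2RB.

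The sequences just before the start site of 4 of the 9 genes (EBI3, IL11, IL6 and IL3RA) are shown first. They are RefSeq promoter bases of GRCh38.p14, written 5′ to 3′ on the strand of the gene. Of the 9 genes, 8 were matched to the table by symbol, and LIF was not. Capitals mark matches to a searched motif.
EBI3: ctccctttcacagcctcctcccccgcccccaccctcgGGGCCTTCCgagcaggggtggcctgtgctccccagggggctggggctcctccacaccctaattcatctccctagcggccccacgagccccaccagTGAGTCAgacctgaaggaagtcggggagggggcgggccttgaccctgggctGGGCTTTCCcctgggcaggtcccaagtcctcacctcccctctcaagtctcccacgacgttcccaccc
IL11: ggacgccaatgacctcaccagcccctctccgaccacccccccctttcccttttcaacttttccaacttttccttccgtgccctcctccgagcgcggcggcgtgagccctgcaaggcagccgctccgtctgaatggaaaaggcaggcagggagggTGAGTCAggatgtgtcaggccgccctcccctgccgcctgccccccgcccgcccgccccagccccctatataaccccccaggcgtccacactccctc
IL6: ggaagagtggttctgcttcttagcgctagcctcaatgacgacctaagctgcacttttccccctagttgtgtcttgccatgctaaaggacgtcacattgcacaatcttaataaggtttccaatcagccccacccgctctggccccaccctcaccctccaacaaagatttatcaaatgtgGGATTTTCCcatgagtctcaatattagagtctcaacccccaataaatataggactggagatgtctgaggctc
IL3RA: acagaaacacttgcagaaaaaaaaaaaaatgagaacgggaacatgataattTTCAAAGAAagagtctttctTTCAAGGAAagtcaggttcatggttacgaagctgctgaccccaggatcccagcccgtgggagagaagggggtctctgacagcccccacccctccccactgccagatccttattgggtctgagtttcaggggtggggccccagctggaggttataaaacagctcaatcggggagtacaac

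The bases of EBI3 are chr19:4229273-4229522 on the plus strand, and those of IL11 are chr19:55370464-55370713 on the minus strand. The bases of IL6 are chr7:22726950-22727199 on the plus strand, and those of IL3RA are chrX:1336535-1336784 on the plus strand, in the region shared by X and Y. The motifs searched on both strands of the 300-base windows, which run from 250 bases before the start to 50 after it, were AP-1 TGANTCA, STAT TTCNNNGAA, NF-kB GGNNNTTCC, CHR TTTGAA and TTCGAA, forkhead TGTTTA and MYB CAACNG. CHR is the element through which the MuvB complex, the partner of MYBL2 and FOXM1, is known to reach cell cycle genes. An AP-1 match was found in 4 of the 8 windows (EBI3, IL11, IL6R and OSMR), against 7.73% of 34796 promoter windows. In EBI3 and IL11 it was the same TGAGTCA, starting at position −118 from the start site in EBI3 and at −96 in IL11. NF-kB matches were in EBI3, IL6, OSMR and LIFR (20.0% of all windows). The only window with a STAT match was that of IL3RA (7.67% of all windows), which held 3 of them, and the one at −199 overlapped a CHR match TTTGAA on the opposite strand (15.2% of all windows). MYB matches were in IL6R and LIFR (32.9% of all windows). The letters TGTTTA (12.3% of all windows) and TTCGAA (1.45%) were in none of the 8 windows. A match describes letters and is not evidence of binding.

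Depth ranged from 16487394 to 30140550 read pairs counted on genes per library, with a median of 24208064. MYBL2 was left at 4.15% of its control level in siMYBL2 and 4.91% in siBoth, and FOXM1 at 9.63% in siFOXM1 and 9.67% in siBoth. FDI6 left 70.1% of MYBL2 and 77.6% of FOXM1. The siMYBL2 libraries were also lower in FOXM1, at 60.2% of its control level (log2 fold change −0.73, SE 0.138, edgeR adjusted p = 0.00754). MYBL2 was at 96.5% in siFOXM1. The share of pairs that were not aligned was 7.68 to 10.93% in siControl_Both and siBoth and 1.73 to 3.03% in the other libraries. Of the 5 epithelial markers, KRT8 and KRT18 were high in every library, at 1598.6 and 1020.8 CPM or more. The others were lower, with KRT19 at 37.7 to 349.2, CDH1 at 9.52 to 90.4 and EPCAM at 1.67 to 37.6 CPM. Of the 5 alveolar type II genes, SFTPA1, SFTPB, SFTPC and NKX2-1 were under 1 CPM everywhere, and LAMP3 was at 0.217 to 2.88 CPM. Of 9 leukocyte markers, 7 including PTPRC and CD3E were under 1 CPM in every library, with PTPRC at 0.232 CPM at most. The summed levels of 5 fibroblast and 4 endothelial markers were at most 70.6 and 5.06 CPM. In such bulk libraries, fewer cells of a type and less RNA per cell cannot be told apart.

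Levels below are normalized counts (CPM), relative to library sizes scaled together by TMM over all 24 libraries. A gene was called when edgeR's quasi-likelihood test gave an adjusted p under 0.05 and the fold change was over 1.5. Compared per kilobase of exon, OSMR was the most abundant of the 9 in siControl at 37.3 ± 4.92 CPM per kb (SD, n = 4), followed by IL6ST at 32.0 ± 3.01, and the libraries of both overlapped. LIF came next at 23.4 ± 2.37 CPM per kb, and IL11, at 18.8 ± 10.2, overlapped it. IL6R was at 4.01 ± 1.12, LIFR at 2.06 ± 0.354, IL3RA at 1.86 ± 0.298 and EBI3 at 0.895 ± 0.12 CPM per kb, of which only LIFR and IL3RA overlapped. IL6 was the lowest at 0.142 ± 0.126 CPM per kb.

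EBI3 lies on chromosome 19 of hg38 from 4229523 to 4237528 (ENSG00000105246.5, 5 exons in its canonical transcript). Its levels in the siControl libraries were 1.29, 1.1, 1.18 and 0.93 CPM, and in the siMYBL2 libraries 4.58, 4.24, 4.36 and 2.61 CPM. Every siMYBL2 library was above every siControl library, and siMYBL2 replicate 4 was the lowest of its group. EBI3 thus rose by a log2 fold change of 1.81 (SE 0.217), or 3.5-fold, with an edgeR adjusted p of 0.000934. Among the 9 genes it was the only one called in siMYBL2, where 7.9% of 16065 genes were called and 4.38% were called higher. Leaving out each library in turn gave log2 fold changes of 1.71 to 1.97.

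In siBoth, EBI3 stood at 14.7, 18.4 and 15.2 CPM against 2.71, 4.46 and 3.41 CPM in siControl_Both. The groups did not overlap, and the log2 fold change was 2.19 (SE 0.201). EBI3 was thus at 16.1 ± 1.99 CPM (SD, n = 3) in siBoth, the highest of all 7 groups. The siControl_Both libraries, at 3.52 ± 0.88 CPM (SD, n = 3), were themselves above the siControl libraries, at 1.12 ± 0.151 CPM (SD, n = 4). These controls came from separate experiments, so the experiment and any other difference between them cannot be told apart. On the log2 scale the effects of siBoth and siMYBL2, each against its own controls, differed by 0.38 (SE 0.307), with siBoth the larger in value. No larger effect of siBoth is read from this. The difference is given without a test, since the siBoth values led to the choice of EBI3.

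In siFOXM1, EBI3 was at 1.66, 2.05, 1.67 and 0.857 CPM, and replicate 4 lay below all siControl libraries while the other 3 lay above them. The log2 fold change of 0.46 (SE 0.269) did not pass the test (edgeR adjusted p = 0.552). Both single knockdowns share the siControl libraries, so they were also compared with each other directly. EBI3 was higher in siMYBL2 than in siFOXM1 by a log2 difference of 1.35 (SE 0.28, edgeR adjusted p = 0.00837), and every siMYBL2 library was above every siFOXM1 library. FDI6 libraries, at 1.4, 1.28 and 1.5 CPM, overlapped their controls at 1.19, 1.3 and 1.29 CPM, with a log2 fold change of 0.14 (SE 0.272, edgeR adjusted p = 0.722). A level of 1 CPM corresponded to few reads, since the counts of EBI3 ran from 22 to 34 in siControl and from 368 to 435 in siBoth.

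The genes that encode the known partners of EBI3 were low. IL27 did not exceed 0.0772 CPM in any library, and IL12A was between 0.163 and 1.86 CPM. The log2 fold change of IL12A was 0.05 (SE 0.487, edgeR adjusted p = 0.96) in siMYBL2 and 0.05 (SE 0.357, edgeR adjusted p = 0.946) in siBoth. Both were named for their pairing with EBI3 after their values had been seen. As EBI3 is well known from leukocytes, the summed level of the 9 leukocyte markers is given beside it. That sum was 14.6 to 18.6 CPM in siMYBL2 and 16.7 to 20.0 CPM in siBoth, against 7.07 to 11.2 CPM in siControl and 7.04 to 11.1 CPM in siControl_Both. It was carried by CD14, called higher in both (log2 fold changes 1.06 and 1.08, edgeR adjusted p = 0.0146 and 0.0254), and by ITGAM, called higher in siBoth (1.21, edgeR adjusted p = 0.00853). The other 7 markers stayed under 1 CPM, of which CD3E, CLEC4C and LILRA4 were at 0 in every library.

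**Figure D1:**
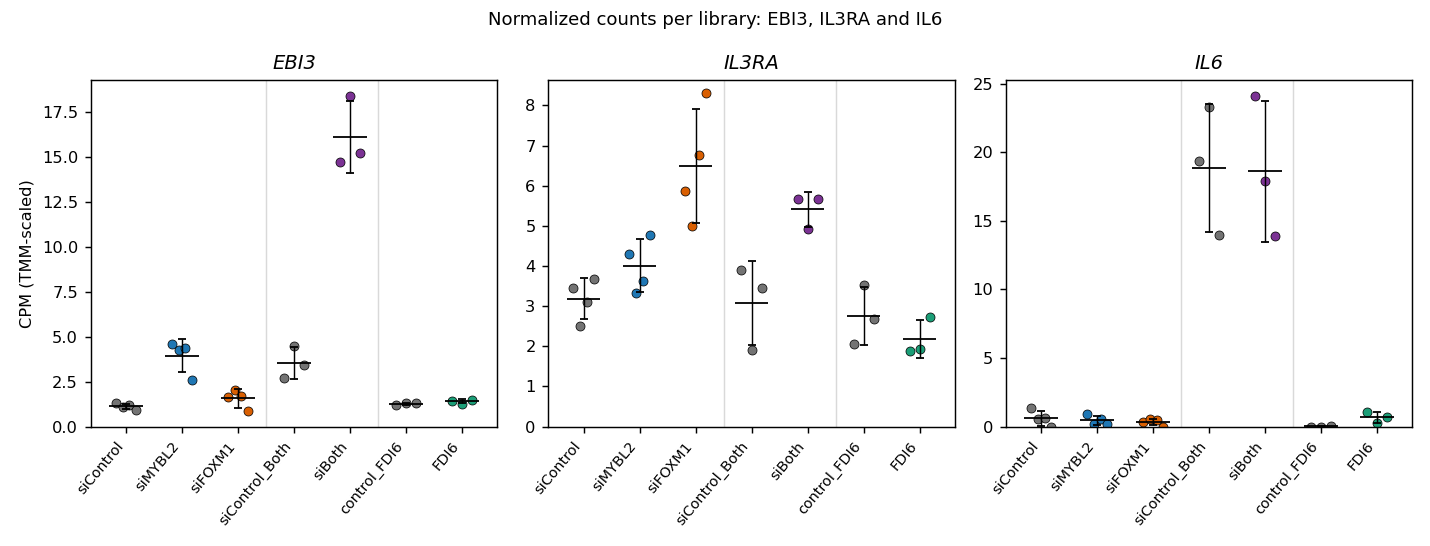
Normalized counts (CPM, linear axis from 0) of EBI3, IL3RA and IL6 in each of the 24 libraries by group, with the group mean as a horizontal line and the SD as an error bar. Vertical lines part the 3 experiments. EBI3 peaks in siBoth at 14.7 to 18.4 CPM, IL3RA in siFOXM1 at 4.99 to 8.31 CPM, and IL6 is at 13.9 CPM or more in siControl_Both and siBoth and at 1.33 CPM or less elsewhere.

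IL3RA lies in the pseudoautosomal region of chromosome X, from 1336616 to 1382689 of hg38 (ENSG00000185291.11, 12 exons), and its copy on Y was counted at 0 in all libraries. In siControl it was at 3.44, 2.5, 3.1 and 3.68 CPM, and in siFOXM1 at 5.87, 4.99, 6.76 and 8.31 CPM. The groups did not overlap, and the log2 fold change was 1.02 (SE 0.186), or 2.03-fold. It is the only one of the 9 genes called in that comparison, in which 0.667% of 15892 genes were called and 0.0755% were called higher, and nothing is read from that count since the gene was chosen for it. That call is a description and no test of the gene, and it was not stable. It was lost without siFOXM1 replicate 1, 3 or 4 or siControl replicate 1, 2 or 3, while the log2 fold change stayed between 0.88 and 1.13. Same-numbered libraries rose by 0.77, 1.0, 1.12 and 1.18 on the log2 scale.

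In siMYBL2, IL3RA was at 4.3, 3.32, 3.63 and 4.78 CPM, overlapping siControl. The log2 fold change of 0.34 (SE 0.172) did not pass the test (edgeR adjusted p = 0.21). With same-numbered libraries paired in the fit (a block on the number) it was 0.34 (SE 0.12, edgeR adjusted p = 0.0352), still under 1.5-fold. The siBoth libraries were at 5.66, 4.91 and 5.68 CPM and their controls at 3.9, 1.9 and 3.45 CPM, so the groups did not overlap. The fitted log2 fold change there was 0.82 (SE 0.261), with an edgeR adjusted p of 0.0764. With the block it was 0.85 (SE 0.183, edgeR adjusted p = 0.00193) and the gene was called, where 11.7% of all genes tested were called with the block. It was also called by DESeq2 (adjusted p = 0.0317) and without a filter on low counts (edgeR adjusted p = 0.0123). It was not called with RLE or upper-quartile scaling, or with at least 10 counts in every library. None of the 6 fits with 1 library left out called it either (edgeR adjusted p 0.0674 to 0.164). Over those 6 fits the log2 fold change ran from 0.56 to 1.02, so the call in siBoth depended on the setting. With FDI-6 the gene went the other way in value, at 1.88, 1.92 and 2.73 CPM against 2.06, 3.52 and 2.69 CPM, a log2 fold change of −0.35 (SE 0.264) that did not pass the test (edgeR adjusted p = 0.326).

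The receptor partner of IL3RA, CSF2RB, did not exceed 0.0423 CPM in any library, and it is named here for that pairing. Of the 6 other genes of the common beta chain family (CSF2RA, CSF2RB, IL5RA, IL3, IL5 and CSF2), 1 or 2 passed the filter on low counts in each comparison. CSF2RA, the alpha chain of the GM-CSF receptor, also in the pseudoautosomal region, was called by edgeR in FDI6. It was at 5.56 ± 0.174 CPM in FDI6 and 2.99 ± 0.279 CPM in control_FDI6 (SD, n = 3 each), a log2 fold change of 0.89 (SE 0.168, edgeR adjusted p = 0.00158). In siBoth its log2 fold change was 1.12 (SE 0.337, edgeR adjusted p = 0.0661).

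**Figure D2:**
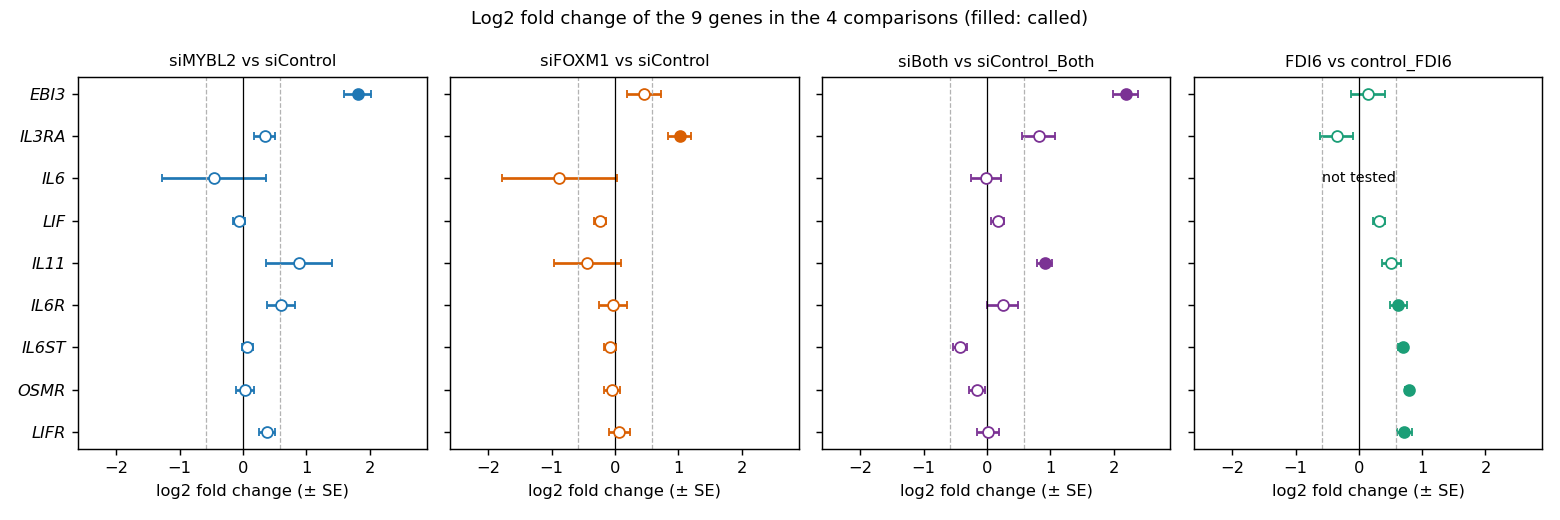
Log2 fold changes of the 9 genes in the 4 comparisons, each treatment against its own control, with standard errors as bars. Filled points were called (edgeR adjusted p under 0.05 and fold change over 1.5) and dashed lines mark 1.5-fold. EBI3 at 1.81 and 2.19 lies farthest right, in siMYBL2 and siBoth, and 4 receptor points are filled in FDI6.

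Among the ligands, IL11 was the only one called in any of the 4 comparisons. IL11, a gp130 cytokine known from fibrosis and tumor stroma, is on chromosome 19 from 55364382 to 55370463 (ENSG00000095752.6, 5 exons). It was at 140.7, 147.2 and 158.7 CPM in siControl_Both and at 311.9, 288.4 and 237.6 CPM in siBoth. Every siBoth library was above every control, with a log2 fold change of 0.91 (SE 0.115, edgeR adjusted p = 0.00284). In that comparison 6.44% of 15812 genes were called and 2.8% were called higher, and EBI3 and IL11 were the 2 called of the 9, both higher, of which EBI3 had been chosen for it. With upper-quartile scaling in place of TMM, 59.4% of all calls in siBoth were higher, against 43.5% with TMM. For IL11 the log2 fold change ran from 0.81 to 1.0 with each library left out.

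The single knockdowns gave IL11 values that spread widely within each group but in step across groups. The siControl libraries 1 to 4 were at 64.8, 40.9, 79.0 and 16.9 CPM. The same-numbered siMYBL2 libraries were at 108.5, 66.4, 160.4 and 35.7 CPM, and those of siFOXM1 at 44.4, 33.4, 59.5 and 11.6 CPM. Library 3 was the highest and library 4 the lowest in all 3 groups, and the groups overlapped. Without the pairing, the log2 fold change was 0.88 (SE 0.521) in siMYBL2 (edgeR adjusted p = 0.279) and −0.44 (SE 0.53) in siFOXM1 (edgeR adjusted p = 0.828). With the replicate number as a block, IL11 was called in siMYBL2 at 0.88 (SE 0.0635, edgeR adjusted p = 1.94e-07), where 12.4% of all genes tested were called. The block gave −0.44 (SE 0.048, edgeR adjusted p = 6.97e-08) in siFOXM1, which is under 1.5-fold and was not called. Within the same number, IL11 was higher in siMYBL2 in 4 of 4 pairs and lower in siFOXM1 in 4 of 4 pairs.

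Set directly against siFOXM1, siMYBL2 held more IL11 by a log2 difference of 1.32 (SE 0.53, edgeR adjusted p = 0.105), and of 1.32 (SE 0.0763, edgeR adjusted p = 3.2e-08) with the block. In this direct comparison 10.2% of 16172 genes were called without the block and 14.3% with it. Leaving out siMYBL2 replicate 4, the lowest library of its group, was enough for a call without the block (adjusted p = 0.0419). With FDI-6, IL11 was at 12.7, 16.5 and 18.9 CPM against 10.6, 10.6 and 12.7 CPM, and the groups met at 12.7 CPM. Its log2 fold change of 0.51 (SE 0.151) passed the adjusted p (0.02 by edgeR) but not the 1.5-fold limit. Without FDI6 replicate 1 or without control_FDI6 replicate 3 it was called, and over the 6 fits with 1 library left out it ran from 0.37 to 0.65. Among the control groups, IL11 was at 11.3 ± 1.24 CPM (SD, n = 3) in control_FDI6, 50.4 ± 27.3 CPM (SD, n = 4) in siControl and 148.9 ± 9.15 CPM (SD, n = 3) in siControl_Both. The number 4 libraries of siControl and siFOXM1, at 16.9 and 11.6 CPM, lay within the range of the FDI-6 experiment.

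LIF, which signals through LIFR and gp130, is on chromosome 22 from 30240453 to 30246759 (ENSG00000128342.4). It was called in none of the 4 comparisons by edgeR, and its log2 fold changes were −0.06 (SE 0.0962) in siMYBL2, −0.24 (SE 0.093) in siFOXM1 and 0.17 (SE 0.102) in siBoth. Pairing by the block gave −0.24 (SE 0.0481, edgeR adjusted p = 0.000358) for LIF in siFOXM1, under 1.5-fold and not called. In FDI6, LIF was at 91.3, 113.8 and 115.8 CPM, all above the controls at 86.1, 87.0 and 84.1 CPM. That log2 fold change of 0.32 (SE 0.0911) had an edgeR adjusted p of 0.0167 but was under 1.5-fold. LIF stood at 210.7 ± 18.8 CPM (SD, n = 3) in siControl_Both, against 90.5 ± 9.16 CPM (SD, n = 4) in siControl. On the opposite strand, LIF-AS1 and LIF-AS2 overlap 4.4% of its exon bases, and the strand setting of the counting is not given in the sources used here.

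**Figure D3:**
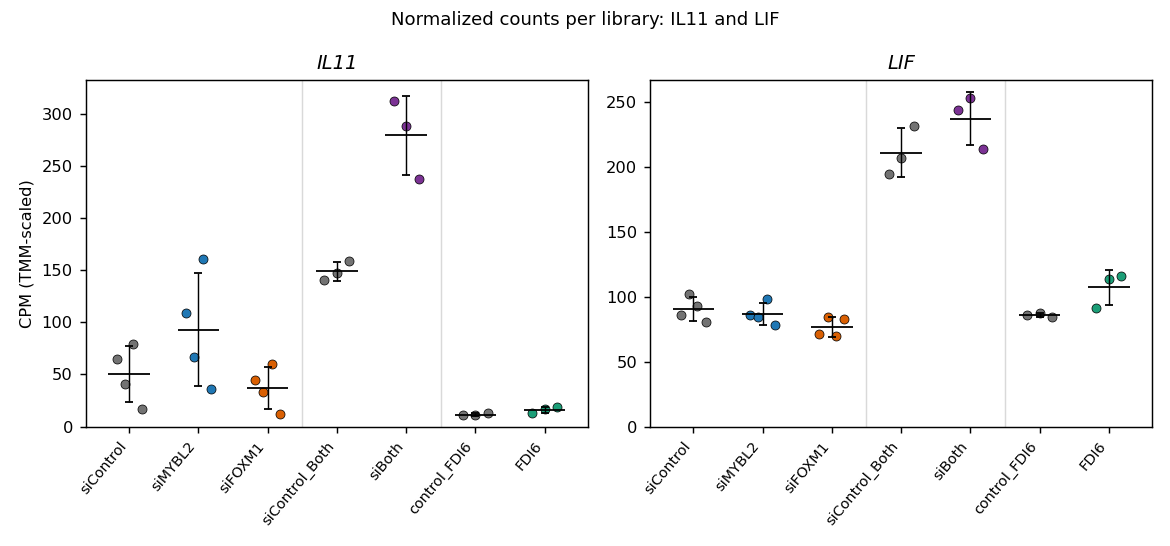
Normalized counts (CPM, linear axes from 0) of the ligand genes IL11 and LIF in the 24 libraries by group, with means and SD. IL11 in siBoth (237.6 to 311.9 CPM) clears its controls (140.7 to 158.7 CPM), while its 3 single-knockdown groups overlap, and LIF is at 194.1 CPM or more in the double-knockdown experiment.

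**Figure D4:**
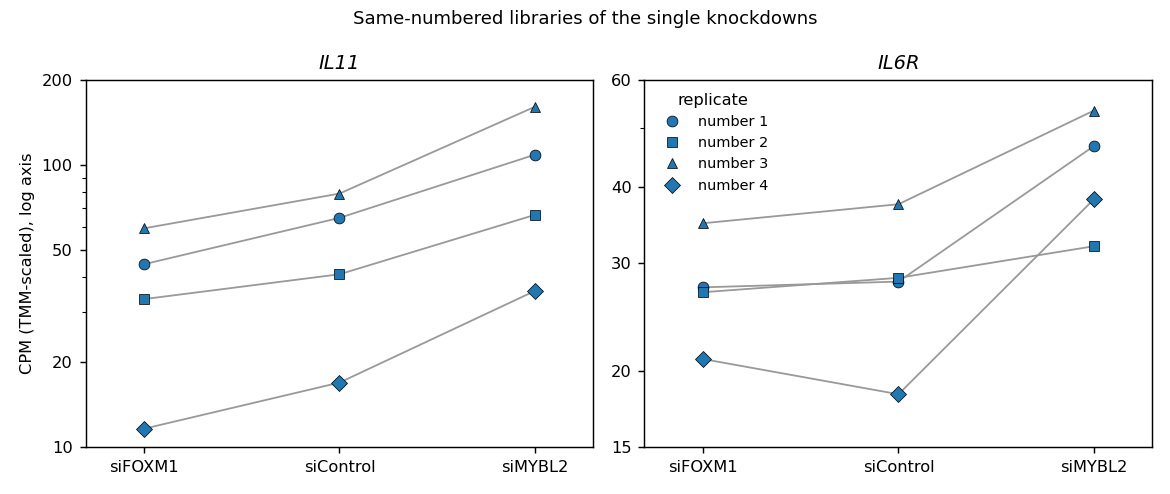
Normalized counts (CPM, log axes) of IL11 and IL6R in the 12 libraries of the single knockdowns, with a line joining the libraries of the same replicate number. For IL11 the 4 lines run nearly parallel, from 11.6 to 59.5 CPM in siFOXM1 up to 35.7 to 160.4 CPM in siMYBL2. For IL6R every line ends higher in siMYBL2 than in siControl.

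IL6, on chromosome 7 from 22725884 to 22732002 (ENSG00000136244.11, 5 exons), differed more between the knockdown experiments than between knockdown and control. It was at 1.33, 0.531, 0.592 and 0 CPM in siControl, at 0.884, 0.169, 0.579 and 0.179 CPM in siMYBL2 and at 0.347, 0.523, 0.494 and 0 CPM in siFOXM1. The siControl_Both libraries were at 19.4, 23.3 and 14.0 CPM and the siBoth libraries at 24.1, 17.9 and 13.9 CPM. None of these groups stood apart from its own control. The log2 fold changes were −0.46 (SE 0.816, edgeR adjusted p = 0.748) in siMYBL2, −0.88 (SE 0.911, edgeR adjusted p = 0.788) in siFOXM1 and −0.02 (SE 0.236, edgeR adjusted p = 0.967) in siBoth. With upper-quartile scaling the last of these was 0.06.

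In the FDI-6 experiment IL6 was counted 18, 5 and 12 times in the 3 FDI6 libraries and 0, 0 and 1 times in the controls. All 3 FDI6 libraries were above all 3 controls, but the gene did not pass the filter on low counts and has no value in the test as set. The 35 counts against 1, scaled by library size, gave a ratio of 39.1 with an exact conditional 95% interval of 6.58 to 1589.9, which covers counting error only. When all genes with any count were kept, edgeR's adjusted p was 1.86e-05. Adjusted p-values depend on that setting. In siBoth, keeping all genes moved the number called from 1019 to 1545, while in FDI6 the number changed less. The value for IL6 is therefore given as a description and not as a call under the settings used here. The IL6 gene overlaps IL6-AS1 and STEAP1B on the opposite strand over 9.9% of its exon bases.

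The 4 receptor genes of the IL-6 family were higher with FDI-6, and these 4 of the 8 genes tested were called, all higher, where 13.8% of 15240 genes were called and 8% were called higher. These 4 were IL6R, IL6ST, OSMR and LIFR, while IL3RA and the listed receptor IL11RA had values below their controls (log2 fold changes −0.35 and −0.38, neither called). The median log2 fold change of the 8 tested genes was 0.56, against −0.01 over all genes tested. OSMR, the oncostatin M receptor chain on chromosome 5 from 38845858 to 38945596 (ENSG00000145623.12), was at 92.7, 95.4 and 96.9 CPM in control_FDI6 and at 176.5, 157.2 and 160.5 CPM in FDI6. Its log2 fold change was 0.79 (SE 0.0678, edgeR adjusted p = 6.96e-06), and the groups stood well apart. IL6ST, the shared gp130 chain on chromosome 5 from 55935095 to 55995022 (ENSG00000134352.19), was at 107.5, 112.0 and 117.7 CPM in the controls and at 201.6, 170.6 and 173.0 CPM in FDI6. Its log2 fold change was 0.69 (SE 0.077, edgeR adjusted p = 4.76e-05), again without overlap.

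LIFR, the LIF receptor chain on chromosome 5 from 38474668 to 38608354 (ENSG00000113594.9), was at 10.7, 9.75 and 11.8 CPM in control_FDI6 and 18.9, 18.4 and 15.9 CPM in FDI6. The groups did not overlap, and the log2 fold change was 0.72 (SE 0.117, edgeR adjusted p = 0.000667). IL6R, the ligand-binding chain for IL-6 on chromosome 1 from 154405193 to 154469450 (ENSG00000160712.12), was at 9.6, 9.79 and 9.59 CPM in the controls and at 12.3, 14.9 and 17.2 CPM in FDI6. It had a log2 fold change of 0.62 (SE 0.135, edgeR adjusted p = 0.00397), close to the 1.5-fold limit, which it missed with upper-quartile scaling (0.57). Without FDI6 replicate 3, the highest library, its log2 fold change was at the low end of the left-out range of 0.49 to 0.73 and it was not called. The other 3 receptor genes were called with every library left out. Annotated antisense partners cover 6.6% of the IL6ST exon sequence, 3.2% for OSMR (RICTOR) and 5.2% for LIFR (LIFR-AS1).

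The 5 epithelial markers differed in the same libraries, and not all in 1 direction. The summed level of KRT8, KRT18, KRT19, EPCAM and CDH1 was 4285.6 to 5083.6 CPM in FDI6 and 7577.2 to 8254.9 CPM in control_FDI6. KRT8, KRT18 and CDH1 were called lower (edgeR adjusted p = 1.59e-05, 4.7e-06 and 5.54e-06), at −0.81, −0.65 and −1.49 on the log2 scale. The less abundant EPCAM and KRT19 passed the adjusted p (0.0106 and 0.00549 by edgeR) but not 1.5-fold, at −0.47 and 0.35 on the log2 scale. Of the leukocyte markers, ITGAM was called higher in FDI6, at 3.06 ± 0.376 CPM against 1.71 ± 0.109 CPM (SD, n = 3 each, log2 fold change 0.83, edgeR adjusted p = 0.0112), while the sum of the 9 was 5.04 to 6.12 CPM against 4.58 to 6.32 CPM. The FDI6 libraries were also the shallowest, with 16487394 to 17741253 pairs against 18856286 to 21039750 pairs. The 5 fibroblast markers summed to 7.83 to 12.7 CPM in FDI6 and 20.4 to 22.6 CPM in control_FDI6. Most of that sum was COL1A1, called lower at 7.35 ± 2.12 CPM against 17.9 ± 0.811 CPM (SD, n = 3 each, edgeR adjusted p = 0.000199). THY1 was at 1.98 against 2.17 CPM (edgeR adjusted p = 0.787). COL3A1 and PDGFRA were lower in value and COL1A2 was higher, all under 1 CPM on average in both groups and not tested. The part of any of these in the receptor result was not tested.

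**Figure D5:**
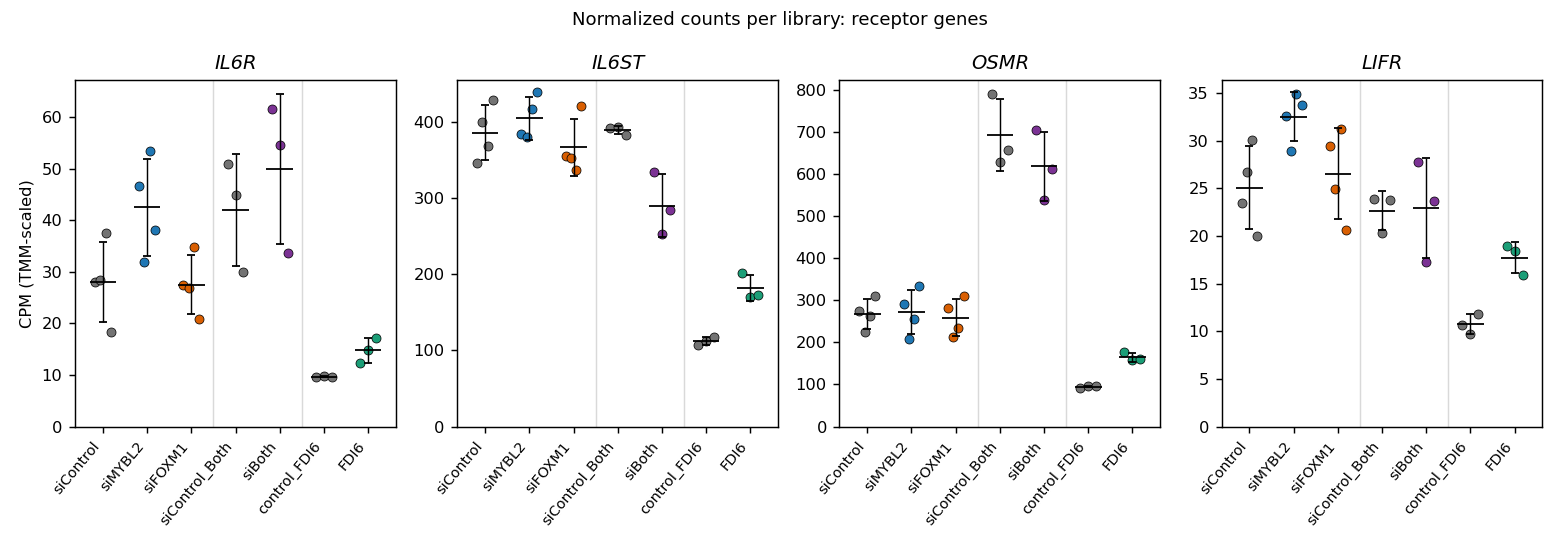
Normalized counts (CPM, linear axes from 0) of the receptor genes IL6R, IL6ST, OSMR and LIFR in the 24 libraries by group, with means and SD. In each panel the 3 FDI6 libraries are above the 3 control_FDI6 libraries, and OSMR is highest in the double-knockdown experiment, at 538.6 to 789.1 CPM.

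In the knockdowns, the receptor genes moved less. IL6R in siMYBL2 was at 46.7, 32.0, 53.4 and 38.2 CPM against 28.0, 28.4, 37.5 and 18.3 CPM in siControl, and the groups overlapped. Its log2 fold change of 0.60 (SE 0.222) had an edgeR adjusted p of 0.0947. With the block it was 0.61 (SE 0.102, edgeR adjusted p = 0.000271) and the gene was called, and DESeq2 called it too (adjusted p = 0.0409). In siFOXM1, IL6R was at 27.4, 26.9, 34.9 and 20.9 CPM, with a log2 fold change of −0.03 (SE 0.217). IL6R was called higher in siMYBL2 than in siFOXM1, at a log2 difference of 0.63 (SE 0.189, edgeR adjusted p = 0.0391). That call was lost when siMYBL2 replicate 1 or 3 or siFOXM1 replicate 1, 2 or 4 was left out, with adjusted p between 0.0206 and 0.0989 over the 8 such fits. In siBoth its log2 fold change was 0.25 (SE 0.246, edgeR adjusted p = 0.533).

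IL6ST was at 334.3, 252.7 and 284.3 CPM in siBoth, below all 3 siControl_Both libraries at 391.9, 393.1 and 383.0 CPM. The log2 fold change of −0.42 (SE 0.11) had an edgeR adjusted p of 0.042 and was under 1.5-fold, so the gene was not called. With the block IL6ST was at −0.43 (SE 0.079, edgeR adjusted p = 0.000491), also under 1.5-fold. In siMYBL2 and siFOXM1 it differed from siControl by 0.07 (SE 0.083) and −0.08 (SE 0.09). OSMR and LIFR were not called in any knockdown, with log2 fold changes between −0.16 and 0.38. The largest of these was that of LIFR in siMYBL2 (SE 0.127, edgeR adjusted p = 0.0721). With the block LIFR was at 0.38 there (SE 0.0874, edgeR adjusted p = 0.00276), still under 1.5-fold and not called. OSMR was at 691.7 ± 85.5 CPM (SD, n = 3) in siControl_Both, 267.6 ± 35.3 CPM (SD, n = 4) in siControl and between 92.7 and 96.9 CPM in the 3 control_FDI6 libraries.

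Of the 8 genes other than IL3RA, EBI3 and IL6R were called between both single knockdowns, where 10.2% of 16172 genes were called. The IL6R call was not stable with libraries left out. IL11 was added by the block, with which 14.3% of all genes were called. IL3RA was lower in siMYBL2 than in siFOXM1 by a log2 difference of −0.69 (SE 0.184, −0.8 to −0.56 with each library left out), given without a test since the siFOXM1 values led to its choice. Against siMYBL2 alone, the effect of siBoth, from a separate experiment, was called different in none of the 9 genes by edgeR (27 of 17012 genes, 0.159%, were called). Only IL6ST, 1 of the 9, had an unadjusted p under 0.05, DESeq2 called none, and with the block none was called either, where 1.59% of all genes were. The difference for IL6ST was −0.49 on the log2 scale (SE 0.14, edgeR adjusted p = 0.314), for IL11 it was 0.03 (SE 0.647) and for IL6R −0.35 (SE 0.366). With the block, IL6ST differed by −0.51 (SE 0.0946, edgeR adjusted p = 0.00407), which passed the adjusted p but not the 1.5-fold limit.

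FDI-6 and FOXM1 knockdown, both directed at FOXM1, were compared through the difference between their effects, each against its own controls, where 11.5% of 17026 genes were called. OSMR and IL6ST responded more to FDI-6 than to siFOXM1, by log2 differences of 0.84 (SE 0.17, edgeR adjusted p = 0.00339) and 0.77 (SE 0.131, edgeR adjusted p = 0.00112), and both calls held with each library left out. LIFR at 0.64 (SE 0.219, edgeR adjusted p = 0.0508) and IL6R at 0.65 (SE 0.294, edgeR adjusted p = 0.134) did not pass. LIF passed the adjusted p at 0.56 (SE 0.141, edgeR adjusted p = 0.0125) but not 1.5-fold. IL6 was called, with an edgeR adjusted p of 0.037, but its fitted fold is not given, since against 1 count in the controls it depends on the prior count of the fit. That call was lost without siFOXM1 replicate 1, siControl replicate 1 or 2, FDI6 replicate 1 or 3, or any control_FDI6 library, and the adjusted p ran from 0.00718 to 0.0977. For IL3RA the effects differed by −1.37 (SE 0.326), stated without a test.

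The remaining genes of the pathway were described by lists. Of 10 other ligands and subunits of the IL-6 and IL-12 families, 4 to 6 were tested in a comparison. The median log2 fold change of the tested ligands lay between −0.11 and 0.17 in the 4 comparisons, against −0.01 to 0.02 over all genes.

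Of 7 other receptors of the same families, 3 were tested in each comparison. IL11RA, the binding chain for IL-11, was called higher in siMYBL2, at 6.4 ± 0.714 CPM against 4.25 ± 0.358 CPM (SD, n = 4 each), with a log2 fold change of 0.59 (SE 0.127, edgeR adjusted p = 0.0131). It was also called higher in siBoth, at 9.02 ± 1.78 CPM against 4.89 ± 0.757 CPM (SD, n = 3 each), with a log2 fold change of 0.88 (SE 0.195, edgeR adjusted p = 0.025). In FDI6 its log2 fold change was −0.38 (SE 0.2, edgeR adjusted p = 0.158). IL31RA, which pairs with OSMR in the receptor for interleukin-31, was called higher in FDI6, at 3.47 ± 0.564 CPM against 0.884 ± 0.0279 CPM (SD, n = 3 each), with a log2 fold change of 1.97 (SE 0.254, edgeR adjusted p = 0.000133).

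All 16 genes of the list of JAK-STAT signaling, its inhibitors and the receptor sheddases were tested in each comparison. Beside the shares of all genes called, the calls were 1 of 16 in siMYBL2 (7.9% of all genes), 1 of 16 in siFOXM1 (0.667%) and 3 of 16 in FDI6 (13.8%). In siMYBL2 the call was STAT5A, higher at 18.3 ± 4.13 CPM against 10.6 ± 1.53 CPM (SD, n = 4 each; log2 fold change 0.79, SE 0.186, edgeR adjusted p = 0.0189). In siFOXM1 it was STAT5B, lower at 43.7 ± 1.66 CPM against 79.5 ± 6.21 CPM (SD, n = 4 each; log2 fold change −0.87, SE 0.0678, edgeR adjusted p = 0.000515). In FDI6, STAT5A and the inhibitor SOCS2 were called higher, by 0.96 (SE 0.145, edgeR adjusted p = 0.000393) and 0.86 (SE 0.101, edgeR adjusted p = 6.48e-05), and the inhibitor CISH was called lower, by −0.84 (SE 0.258, edgeR adjusted p = 0.0228). In siBoth edgeR called 0 of the 16, with 5 at an unadjusted p under 0.05, and DESeq2 called 1. STAT3 itself was not called in any comparison. In siMYBL2 it was at 409.7 ± 23.4 CPM against 280.6 ± 8.23 CPM (SD, n = 4 each), and its log2 fold change of 0.55 (SE 0.0617) had an edgeR adjusted p of 0.000662 but missed the 1.5-fold limit. In FDI6 it was −0.0015 (SE 0.0587).

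Among 18 genes known as STAT3 or acute phase targets, 12 to 15 were tested. In FDI6, 4 of 12 were called lower and 2 higher, where 13.8% of all genes were called. The fibrinogen genes FGA, FGB and FGG, acute phase products known from hepatocytes, fell by 2.49 (SE 0.124), 2.67 (SE 0.165) and 1.90 (SE 0.152) on the log2 scale, and CEBPD, a transcription factor, fell by 0.96 (SE 0.108). MCL1, which opposes apoptosis, rose from 199.7 ± 4.31 to 453.8 ± 43.4 CPM and ICAM1, an adhesion molecule, from 0.453 ± 0.0783 to 3.14 ± 0.505 CPM (SD, n = 3 each). The edgeR adjusted p of these 6 genes was 4.85e-05 or lower. In siBoth, ICAM1 was called higher (log2 fold change 1.16, SE 0.227, edgeR adjusted p = 0.0163) and 1 gene was called lower, LBP. In siMYBL2 the only call was JUNB, higher by 0.60 (SE 0.0854, edgeR adjusted p = 0.00227). LBP and JUNB fall outside the 6 genes named per list and were named after their values were seen. In siFOXM1, edgeR and DESeq2 called 0 of the 13 tested, with 1 at an unadjusted p under 0.05. Over the list, the median log2 fold change was −0.13 in siMYBL2, −0.17 in siBoth and 0.00073 in FDI6, against 0.01, 0.02 and −0.01 over all genes tested.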

How the data were processed

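RNA was captured by poly(A) and sequenced as 150-base pairs. According to the study's methods and the submitters' processing notes, the authors trimmed reads with Trim Galore, aligned them to hg38 with STAR and counted pairs on GENCODE V29 genes with HTSeq. Counts were deposited per library and were not normalized. Pairs that match more than 1 gene are not counted by HTSeq, so overlapping genes are counted in part. The rows that name no gene held 3.36 to 4.93% of pairs (no feature), 7.88 to 11.2% (ambiguous) and 1.73 to 10.93% (not aligned) and were left out.

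Identifiers were matched without version to GENCODE V44, with 58252 found and 469 not found. Every comparison had its own edgeR fit, holding the compared groups alone (edgeR 4.0.16 in R 4.3.3, TMM scaling, the default filter on low counts, quasi-likelihood test, Benjamini-Hochberg adjustment over all genes tested). The SE is the log2 fold change divided by the square root of F. The script was tested on simulated data. Differences between effects were contrasts in 1 fit over 4 groups. Alternatives were DESeq2 1.42.0 (the tool of the study), other scalings (RLE, upper quartile), other filters (none, or 10 counts in every library), the replicate block, a joint fit of the 12 libraries of the single knockdowns, and each library left out. Libraries with the same number deviated together in the knockdowns (lowest correlation across genes 0.52 over the pairs, at 50 counts or more) but not with FDI-6 (mean −0.08), and the labels give the numbers. Over 30 pairs of same-group libraries, the lowest chi-square per gene was 3.57, so all were kept as separate libraries. Sequences were read from RefSeq promoters of GRCh38.p14.

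The members, gene lists and tests were chosen with earlier results of these data known. Genes of the lists were named if called in any of the 4 treatment comparisons, at most 6 per list by adjusted p. Results for some genes of the ligand list are not reported here. For EBI3, IL3RA and IL6, the 5 genes with the most similar pattern were named.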

Additional observations from a re-analysis of the deposited data

How the results depend on the processing

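Over the alternatives that kept all libraries, 366 of 385 member log2 fold changes kept their direction and their side of the thresholds, 16 became calls, 1 lost its call (IL6R in FDI6, 0.57 with upper-quartile scaling) and 2 changed sign around 0 (IL6 in siBoth, 0.06 with upper-quartile scaling, and LIFR in siBoth, −0.0011 with the replicate block). The replicate block gave 1991 called genes in siMYBL2 in place of 1269, 401 in siFOXM1 in place of 106, 1849 in siBoth in place of 1019, and 271 for the siBoth effect minus the siMYBL2 effect in place of 27, for which DESeq2 gave 65. Without a filter, 1545 genes were called in siBoth. Of the 9 members, DESeq2 called 2 in siMYBL2 and the block 3, in place of 1. For the FDI6 effect minus the siFOXM1 effect, 7 were called with the block and 7 without a filter, in place of 4 (IL3RA and IL6 included). The main fit called 11.5% of all genes for that difference. Shares with the block or without a filter are not given, and IL3RA was chosen on its siFOXM1 values, so nothing is read from these counts. With upper-quartile scaling 51.4% of all calls in that difference were higher (1024 higher and 967 lower), against 63.7% with TMM (1247 and 712). FDI6 libraries did not pair by number, and the block left 4 members called there.

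With 1 library left out at a time, 507 of 570 member values were unchanged in call and sign, 11 became calls, 25 lost a call and 27 changed sign. The numbers of called genes ran from 935 to 1456 in siMYBL2, 56 to 115 in siFOXM1, 587 to 1097 in siBoth, 1705 to 2406 in FDI6, 1363 to 1689 between the single knockdowns, 7 to 28 for siBoth minus siMYBL2 and 1446 to 2350 for FDI6 minus siFOXM1. Members called ran from 0 to 1 in siFOXM1, 3 to 6 in FDI6, 1 to 4 between the single knockdowns and 3 to 7 for FDI6 minus siFOXM1. The 1 in siFOXM1 was IL3RA, which was chosen on those values and also counts in the other ranges that involve siFOXM1. Calls over all genes varied in the same fits, and nothing is read from these member counts. The sign changes were all of values that were not called. In siMYBL2 these were IL6 (−1.0 to 0.21) and OSMR (−0.08 to 0.13). In siFOXM1 they were IL6R (−0.19 to 0.14), OSMR (−0.15 to 0.03) and LIFR (−0.02 to 0.18). In siBoth they were IL6 (−0.26 to 0.16) and LIFR (−0.16 to 0.18). Between the single knockdowns they were IL6 (−0.12 to 0.7) and OSMR (−0.04 to 0.18), and for siBoth minus siMYBL2 they were IL6 (−0.2 to 0.99) and IL11 (−0.28 to 0.43). The cause was not tested.

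IL6 gave no value with at least 10 counts in every library in the single knockdowns, and none in FDI6 with the filter. Depth limits EBI3, IL3RA and IL6 most, with 22 to 435, 31 to 252 and 0 to 635 counts per library, and intervals from counts cover counting error only.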

Other observations

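Over the 24 libraries, the genes whose log2 levels, taken relative to the mean of each library's own control group, followed those of EBI3 most closely were DNTTIP1 (Pearson r = 0.94), TBC1D2B (0.93), CD70 (0.93), PLAT (0.92) and ARMC9 (0.92). CD70, a TNF family ligand, was at 20.7 CPM in siMYBL2 and 22.8 CPM in siBoth against 11.4 and 10.4 CPM in their controls. PLAT, tissue plasminogen activator, was at 12.1 and 12.2 CPM against 4.66 and 4.32 CPM. The closest to IL3RA were GSTK1 (r = 0.89), TMEM80 (0.88), PSKH1 (0.88), GSTZ1 (0.87) and SLC35A4 (0.86), with PSKH1 at 37.3 CPM in siFOXM1 against 22.9 CPM in siControl. The libraries share their control groups and experiments, so r is a description.

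The genes closest to IL6 were CXCL2 (r = 0.94), NFKBIZ (0.93), CXCL1 (0.93), ZEB2 (0.92) and CXCL8 (0.91), of which CXCL1, CXCL2 and CXCL8 encode neutrophil chemokines. CXCL8 was at 57.8 CPM in FDI6 and 2.2 CPM in control_FDI6, at 762.1 CPM in siBoth and 439.3 CPM in siControl_Both, and at 63.3 CPM in siControl. CXCL1 was at 55.5 CPM in FDI6 and 7.22 CPM in control_FDI6, and at 300.3 CPM in siControl_Both against 63.4 CPM in siControl. These genes were picked for their likeness to IL6 in the same libraries, so they are no independent support for its values.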
